A study of Rattus with 12 samples.

Results

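Toll-like receptor 4 (Tlr4), the partners it needs to respond and the classical inflammatory products of its signaling make up a group of 10 genes, chosen by symbol: Tlr4, Ly96, Cd14, Myd88, Il1b, Tnf, Il6, Il1rn, Nos2 and Ptgs2. All 10 were found among the 17337 genes of the count table, and all had a count in some culture. RNA was measured by sequencing in 12 complex cultures of Sprague Dawley rat cells, in which commercial primary cortical neurons, astrocytes and oligodendrocyte precursor cells (OPCs) were grown together. For 4 days the cultures received either no fentanyl (untreated, cultures A, G, M and P), 0.01 μM (low dose, B, H, N and Q) or 10 μM (high dose, C, I, O and R) of this synthetic agonist of the mu opioid receptor. Each condition held 4 cultures, and no other allele or agent is named for any of them. Microglia, the immune cells of the brain, were not seeded, and the culture is a model of cortex from purchased cells without blood vessels or circulating immune cells.

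Toll-like receptor 4 is the receptor of innate immune cells for bacterial lipopolysaccharide. It works as a complex with the co-receptor MD-2, the product of Ly96, and receives its ligand from CD14, after which adaptor proteins such as MyD88 set NF-κB and MAP kinases in motion. The genes that these pathways turn on include the cytokines interleukin-1 beta, tumor necrosis factor and interleukin-6, the inducible enzymes of nitric oxide and prostaglandin synthesis, and inhibitors that limit the response. In the brain microglia carry most of this receptor, and some opioids have been discussed as ligands of it.

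Total counts per culture ranged from 12059872 to 24813893, and levels are given as CPM, the counts scaled to a common library size, with TMM normalization. A count of 3 was taken as the floor of detection, which was 0.124 to 0.25 CPM depending on the culture and covers counting error only. The filter on low counts kept 12271 genes, among them 8 of the 10, while Tnf and Il6 were left out of the model. The letters run on across the doses, which gives 4 letter sets, P-Q-R, M-N-O, G-H-I and A-B-C. Cultures of a set often resembled each other, but not for every gene. In M-N-O, for example, fibroblast markers summed to 859 CPM in M and 4414 CPM in N. What the letters mean is stated neither in the labels nor in the methods. Contrasts inside a set are therefore shown as values, with counting intervals at most. Fits with the letter sets as a block are given only as alternatives to the main model. Their p-values assume that the letters mark related cultures, which is not known. Untreated culture G stood apart: its 14 neuronal markers summed to 442 CPM, against 3519 to 5123 CPM in the other cultures. The labels do not say whether the 4 cultures of a condition came from separate animals, so p-values measure only the spread between these cultures.

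None of the 8 genes in the model was a DEG in any of the comparisons. A DEG needed an adjusted p under 0.05 (quasi-likelihood test of edgeR, Benjamini-Hochberg) with an absolute log2 fold change of more than 0.5. In high dose vs. low dose this was true of 0% of the 12271 genes, and of 0% also in both comparisons with untreated cultures (low dose, high dose), so the count of 0 among the 8 is the same as for the other genes. At an unadjusted p under 0.05, Il1b in high dose vs. untreated cultures was the only value among the 8 genes and 3 comparisons, beside 0.921% of all genes that were higher at that p. Over all genes, edgeR gave 91, 146 and 144 genes at that p in low dose vs. untreated, in the high dose against untreated and between the doses. Without any effect a share of 0.05 of the 12271 genes would pass, and the main model found fewer. In the same order it was 117, 131 and 59 genes without a factor of unwanted variation, and 1209, 1336 and 2317 with 4 factors in place of 1. A lack of DEGs in the main model therefore does not show that the genes were unchanged. The Wald test of DESeq2 called 0, 3 and 1 genes, none of them among the 8. The median log2 fold change over the 8 genes was 0.02 in low dose vs. untreated, 0.10 for the high dose against untreated and 0.04 between the doses, and over all genes 0.01, 0.00 and -0.01. Without the model, the level of every one of the 10 genes overlapped between the conditions in each comparison, as it did in all but 0.407%, 0.685% and 1.19% of the genes kept (same order). The smallest exact two-sided permutation p over the 10 genes was 0.257, where 4 against 4 cultures cannot give less than 0.0286. In each case the difference between the condition means of log2(CPM + 1) was smaller than the larger of the SDs of the conditions compared, which also hold the differences between the letter sets.

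**Figure D1:**
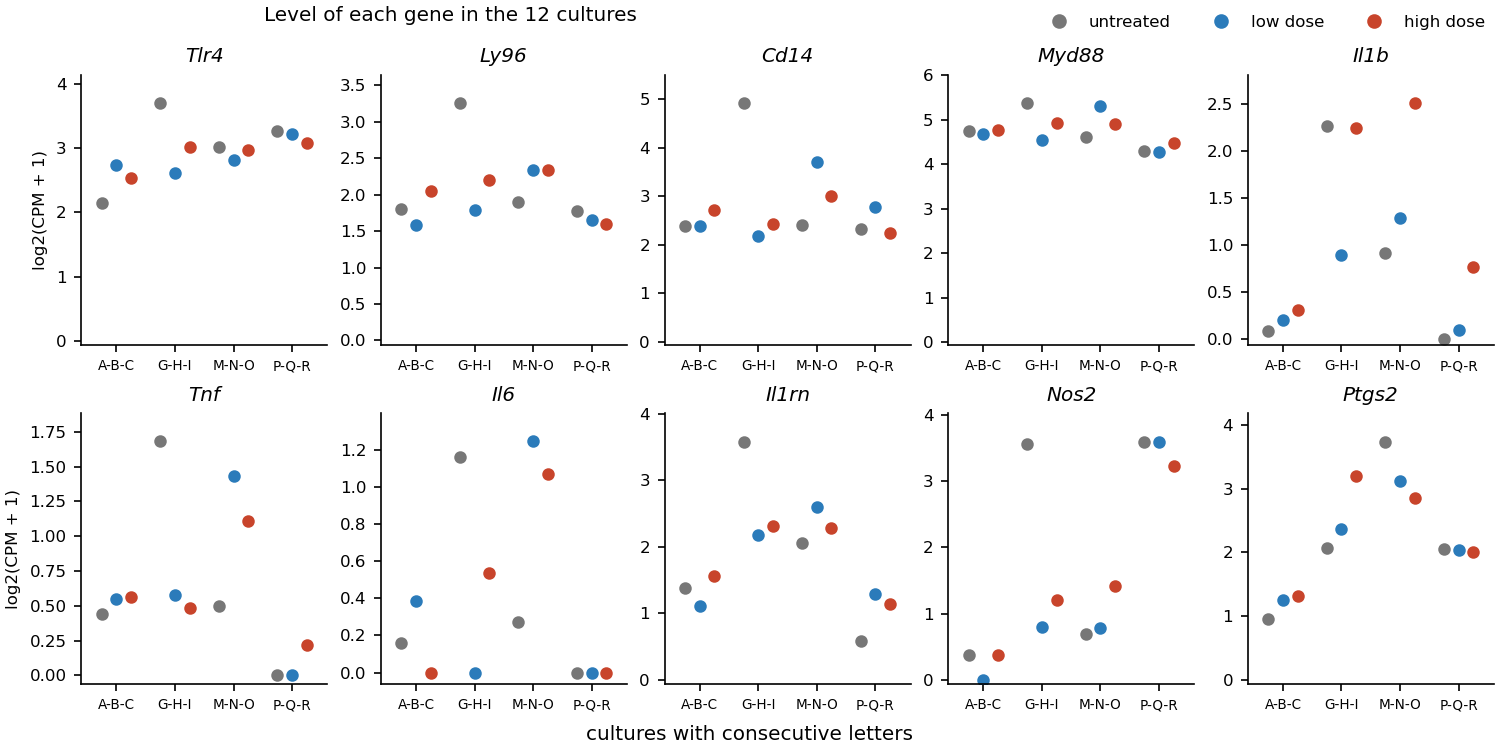
Level of the 10 genes as log2(CPM + 1) on the vertical axis in each of the 12 cultures, placed by sets of consecutive letters on the horizontal axis and colored by condition, each panel with its own scale. Points of 1 set often lie closer together than points of 1 color, as for Nos2 in P-Q-R, and untreated culture G is the highest point for Tlr4, Ly96, Cd14, Myd88, Tnf and Il1rn.

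Tlr4 was transcribed in every culture, at similar levels in the 3 conditions. The untreated cultures A, G, M and P had 3.42, 12, 7.06 and 8.65 CPM, the low dose cultures B, H, N and Q 5.69, 5.13, 6 and 8.32 CPM, and the high dose cultures C, I, O and R 4.80, 7.12, 6.83 and 7.44 CPM. Both the lowest and the highest value were thus found without fentanyl, and the treated cultures lay between them. The condition means were 7.78 ± 3.56 CPM (SD, n = 4) untreated, 6.29 ± 1.41 CPM at the low dose and 6.55 ± 1.19 CPM at the high dose, and 6.38 ± 2.68 CPM (n = 3) in untreated cultures without G. In the model the log2 fold change was -0.06 with a 95% interval from -0.73 to 0.62 in high dose vs. untreated and -0.10 with an interval from -0.78 to 0.58 in low dose vs. untreated. Within the letter sets, the high dose culture was above its low dose neighbor in 2 sets and below it in the other 2.

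The co-receptor gene Ly96 was counted 26 to 132 times per culture. Its levels were 2.48, 8.56, 2.74 and 2.41 CPM in untreated, 2, 2.47, 4.05 and 2.13 CPM in low dose and 3.14, 3.61, 4.06 and 2.03 CPM in high dose cultures, in the order of letters used for Tlr4. Culture G was far above the others, which lay within 2 to 4.06 CPM. The log2 fold change was 0.18 (95% interval -0.29 to 0.64) in high dose vs. untreated and 0.27 (-0.19 to 0.72) in high dose vs. low dose.

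Cd14, whose product hands lipopolysaccharide to the receptor complex, had 4.25, 29.1, 4.32 and 3.99 CPM in untreated, 4.23, 3.52, 12.1 and 5.85 CPM in low dose, and 5.57, 4.41, 7.03 and 3.76 CPM in high dose cultures. Untreated culture G and low dose culture N were high, and the remaining 10 lay between 3.52 and 7.03 CPM. These were also the cultures with the highest sums of microglial markers (1752 CPM in G and 1913 CPM in N) and of fibroblast markers (3092 CPM in G and 4414 CPM in N, against 392 to 859 CPM elsewhere), and the part of these cells in the Cd14 level was not tested. The untreated mean was 10.4 ± 12.5 CPM with G and 4.19 ± 0.17 CPM (n = 3) without it, beside 6.42 ± 3.89 CPM at the low and 5.19 ± 1.43 CPM at the high dose. High dose vs. low dose gave a log2 fold change of -0.26 (95% interval -0.83 to 0.31).

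Myd88, the adaptor that links the receptor to the IRAK kinases, had the narrowest intervals of the 8 genes. Levels were 26.0, 40.5, 23.6 and 18.8 CPM in untreated, 24.8, 22.4, 38.9 and 18.4 CPM in low dose and 26.2, 29.4, 29.1 and 21.3 CPM in high dose cultures. Again G and N were highest, and the 3 cultures of P-Q-R gave 18.4 to 21.3 CPM, below all others. The log2 fold changes were 0.13 (95% interval -0.27 to 0.53), 0.16 (-0.24 to 0.56) and 0.03 (-0.36 to 0.43) for the low dose against untreated, the high dose against untreated and the high against the low dose.

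Il1b, which encodes the inflammatory cytokine interleukin-1 beta, was weakly transcribed, and its level was highest at the high dose in 3 of the 4 letter sets, while in G-H-I untreated G and high dose I had nearly the same level. In A-B-C there were 1, 2 and 4 counts in the untreated, low dose and high dose culture, all near the floor. The set G-H-I had 59, 14 and 75 counts, the set M-N-O 13, 22 and 73, and the set P-Q-R 0, 1 and 17. As levels, these were 0.06, 3.83, 0.89 and 0 CPM in untreated A, G, M and P, 0.15, 0.86, 1.44 and 0.07 CPM in low dose B, H, N and Q, and 0.24, 3.76, 4.71 and 0.70 CPM in high dose C, I, O and R. The conditions overlapped, because the sets differed from each other by more than the doses did: all of A-B-C lay at or under 0.24 CPM.

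From the low to the high dose, the level of Il1b was 1.54 times as high in A-B-C (95% counting interval 0.22 to 17.0), 4.35 times in G-H-I (2.44 to 8.33), 3.28 times in M-N-O (2.01 to 5.55) and 10.2 times in P-Q-R (1.60 to 427). Each of these ratios compares 1 culture with 1 culture, and the intervals cover counting error only, not the spread between cultures. The last 3 lie above 1, and that of A-B-C, with 2 and 4 counts, includes 1. Of the 8 genes in the model, Il1b was the only one that was higher at the high than at the low dose in all 4 sets, which 11.7% of all genes were, and none was lower in all 4, which 11.1% of all genes were. Against the untreated culture of its set, the high dose culture had 4.02 times the level in A-B-C (0.40 to 198), 0.98 times in G-H-I (0.69 to 1.41) and 5.28 times in M-N-O (2.90 to 10.4). In P-Q-R, with 0 counts in P, it had 2.82 times the level of a floor of 3 counts in P. The lower limit of the 95% counting interval of R against P was 2.05. The interval for I against G included 1.

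Pooled over the sets, Il1b averaged 1.19 ± 1.80 CPM (SD, n = 4) in untreated cultures (0.32 ± 0.50 CPM, n = 3, without G), 0.63 ± 0.64 CPM at the low dose and 2.35 ± 2.21 CPM at the high dose. In the model the log2 fold change of low dose vs. untreated was 0.96 (SE 1.07, unadjusted p = 0.387, adjusted p 1 by edgeR). That of high dose vs. untreated was 2.81 (SE 1.02, 95% interval 0.54 to 5.07, unadjusted p = 0.0201, adjusted p 0.9999 by edgeR), and that of high dose vs. low dose 1.84 (SE 0.93, -0.23 to 3.92, unadjusted p = 0.076, adjusted p 0.9999 by edgeR). The size in high dose vs. untreated depends on how the model treats the untreated cultures: the log2 fold change was 0.96 without the factor of unwanted variation, which mainly sets G (0.65) apart from the other cultures (-0.50 to -0.13), and 5.29 without culture M. Without G it was 2.76 (unadjusted p = 0.0772, adjusted p 0.9999 by edgeR). The unadjusted p was no longer under 0.05 in 7 of 19 alternatives, without untreated A, G or P, without high dose I or O, without a factor and with the letter sets as a block in place of it (0.0539 to 0.477 by edgeR). High dose vs. low dose moved less, with 1.42 to 2.28 over 19 alternatives, and with 4 factors in place of 1 Il1b was a DEG there (log2 fold change 1.82, adjusted p of edgeR 0.0292), as were 0.921% of all genes. With the letter sets as a block in place of the factor, high dose vs. low dose gave 1.99 for Il1b (unadjusted p = 0.0244, adjusted p 1 by edgeR).

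**Figure D2:**
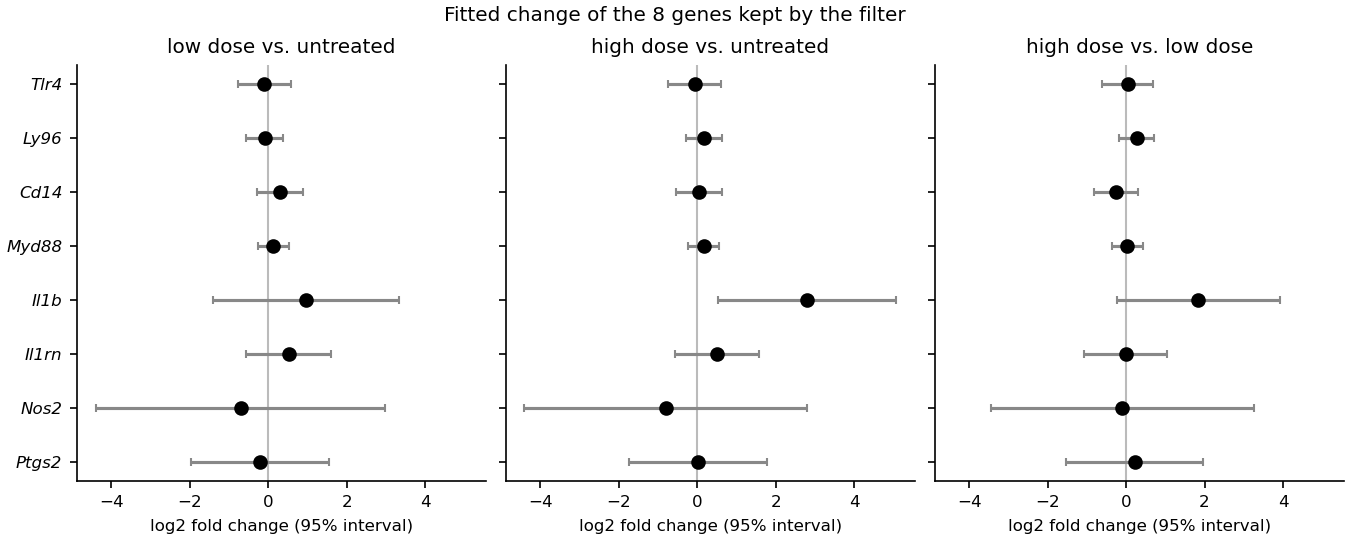
Fitted log2 fold change (horizontal axis) of the 8 genes in the model with its 95% interval, for each of the 3 comparisons. Every interval includes 0 except that of Il1b in high dose vs. untreated (0.54 to 5.07), and the intervals of Tlr4, Ly96, Cd14 and Myd88 are narrower than those of Il1b, Nos2 and Ptgs2.

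Il1rn encodes the interleukin-1 receptor antagonist, which binds the receptor of interleukin-1 without activating it. Its levels were 1.59, 11, 3.15 and 0.50 CPM in untreated, 1.15, 3.52, 5.09 and 1.44 CPM in low dose and 1.95, 3.96, 3.87 and 1.20 CPM in high dose cultures. The high dose means of 2.75 ± 1.39 CPM and the low dose means of 2.80 ± 1.85 CPM were nearly equal, and high dose vs. low dose gave a log2 fold change of -0.01 (95% interval -1.06 to 1.04). From the low to the high dose, the ratio of Il1rn was 0.76 in M-N-O (95% counting interval 0.53 to 1.08) and 0.83 in P-Q-R (0.46 to 1.53). It was 1.69 in A-B-C (0.89 to 3.36) and 1.125 in G-H-I (0.79 to 1.61). Each of these intervals includes 1, so a change of Il1rn within a set could not be told from counting error.

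Both genes were also combined in the share of Il1b among all counts of Il1b and Il1rn in a culture. This ratio was formed after the values were seen, was not corrected for gene length and is given without a test. In the high dose cultures the share was 10.8% in C (95% Wilson interval 4.29 to 24.7), 48.7% in I (40.9 to 56.5), 54.9% in O (46.4 to 63.1) and 37.0% in R (24.5 to 51.4). In the low dose cultures it was 11.8% in B, 19.7% in H, 22.0% in N and 4.55% in Q, and in the untreated cultures 3.57% in A, 25.9% in G, 22.0% in M and 0% of 6 counts in P. High dose cultures I, O and R were above all others, and the share of culture G, whose levels of Il1b and Il1rn were both high, was close to that of M. The intervals of I and O overlapped that of no untreated or low dose culture. That of R overlapped most of them, as G (20.6 to 31.9) and P of its own set (0 to 39.0), but not Q (0.81 to 21.8). Culture C was within the range of the untreated and low dose cultures. The intervals cover counting error only.

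**Figure D3:**
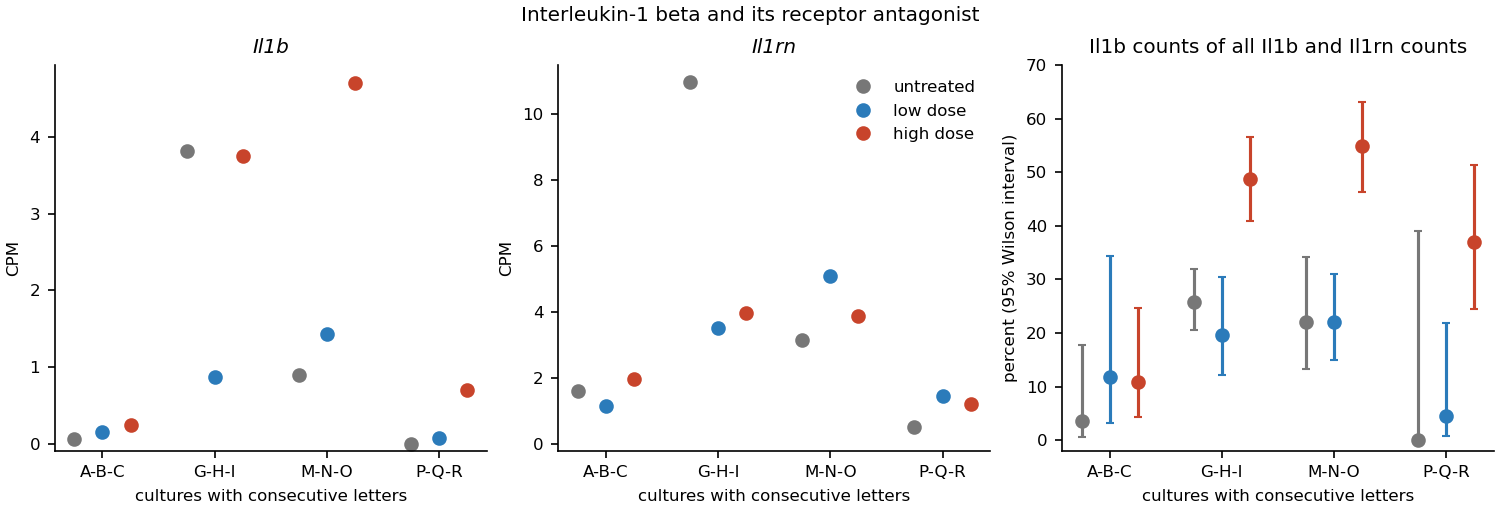
Levels of Il1b and Il1rn in CPM (left and middle) and the percent of Il1b among the counts of both genes with 95% Wilson intervals (right), by letter set and condition. The share at the high dose was 48.7%, 54.9% and 37.0% in cultures I, O and R, above the other cultures of their sets, and 10.8% in C, near that of the low dose culture.

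Tnf and Il6, the genes of the other classical cytokines of this pathway, were at the edge of detection. Tnf had 6, 34, 6 and 0 counts in untreated A, G, M and P, 6, 8, 26 and 0 in low dose B, H, N and Q, and 8, 8, 18 and 4 in high dose C, I, O and R. Il6 had 2, 19, 3 and 0 counts, 4, 0, 21 and 0, and 0, 9, 17 and 0 in the same order. G and N gave the highest counts of both, and in P-Q-R there were 4 counts of Tnf and none of Il6 in the 3 cultures. For a culture with 0 counts, the floor allows up to 0.25 CPM in P, 0.206 CPM in Q and 0.124 CPM in R. Neither gene was above its low dose level in the high dose culture of all sets, and their means differed by 0.045 or less on the log2(CPM + 1) scale between these doses (exact permutation p = 0.886 for Tnf and 1 for Il6). Between single cultures there were differences beyond counting error, as in low dose N over untreated M with 4.12 times the level of Tnf (95% counting interval 1.66 to 12.3) and 6.66 times that of Il6 (1.99 to 34.9), and in high dose I over untreated G with 0.18 times the level of Tnf (0.07 to 0.40).

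Nos2, the gene of the inducible nitric oxide synthase, varied more between the letter sets than between the doses, with untreated culture G apart from its own set. It had 0.30, 10.8, 0.62 and 11.1 CPM in untreated A, G, M and P, 0, 0.74, 0.72 and 11.1 CPM in low dose B, H, N and Q, and 0.30, 1.30, 1.68 and 8.39 CPM in high dose C, I, O and R. The 3 cultures of P-Q-R thus had 8.39 to 11.1 CPM at every dose and untreated culture G 10.8 CPM, and the other 8 cultures 0 to 1.68 CPM. In its own set, H had 0.068 times the level of G (95% counting interval 0.035 to 0.123) and I 0.12 times (0.076 to 0.18). Without G, 96.9% of the variance of log2(CPM + 1) of Nos2 lay between the letter sets and 0.96% between the doses. With all 12 cultures these shares were 77.8% and 5.36%. For the other 9 genes without G, the letter sets held 43.6% (Cd14) to 89.6% (Ptgs2) and the doses 0.58% (Ptgs2) to 33.2% (Il1b). With G, Cd14 had 18.0% between the sets and Il1b 16.4% between the doses. These shares were not tested, and 4 sets hold on average a larger share than 3 doses even without any effect. Without G, the shares of sets and doses can also overlap, since G-H-I then lacks its untreated culture. Within P-Q-R, the high dose culture had 0.76 times the level of the low dose culture (95% counting interval 0.61 to 0.94), while in M-N-O it had 2.33 times (1.11 to 5.24). The fitted log2 fold changes had wide 95% intervals, with -0.70 (-4.38 to 2.98) in low dose vs. untreated, -0.80 (-4.41 to 2.81) in high dose vs. untreated and -0.10 (-3.45 to 3.26) in high dose vs. low dose.

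Ptgs2 encodes the inducible cyclooxygenase COX-2 and is, in cortex, also a gene of active excitatory neurons. Its levels were 0.94, 3.18, 12.3 and 3.16 CPM in untreated, 1.39, 4.14, 7.70 and 3.10 CPM in low dose, and 1.48, 8.17, 6.25 and 3.02 CPM in high dose cultures. The sets A-B-C at 0.94 to 1.48 CPM, P-Q-R at 3.02 to 3.16 CPM and M-N-O at 6.25 to 12.3 CPM lay apart from each other, and G-H-I at 3.18 to 8.17 CPM overlapped M-N-O. The high dose culture had 2.57 times the level of the untreated culture in G-H-I (95% counting interval 1.86 to 3.62) and 1.57 times in A-B-C (0.81 to 3.14). It had 0.96 times in P-Q-R (0.64 to 1.45) and 0.51 times in M-N-O (0.39 to 0.66). In G-H-I the untreated culture is G with its low neuronal markers, and low dose culture H had 1.30 times the level of G (0.89 to 1.92). These intervals compare single cultures and cover counting error only. The part of neurons in the Ptgs2 level was not tested. Pooled, high dose vs. untreated gave a log2 fold change of 0.02 (95% interval -1.74 to 1.77).

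Since microglia are known as a source of these genes in brain, their levels were set beside 15 microglial markers. The markers summed to 53.6 to 68.0 CPM in P-Q-R and to 483 to 1913 CPM in the other 9 cultures, without a difference by dose that could be told from this spread (776 ± 722 CPM untreated, 884 ± 777 CPM low dose, 834 ± 576 CPM high dose, n = 4). Single markers, named here after their values were seen, did not all follow this sum. Cx3cr1, a chemokine receptor gene, had 1 count in P, 1 in Q and 0 in R, but only 9 in G. P2ry12 had 11, 11 and 18 counts in P, Q and R, beside 7 in A and 14 in B. C1qb had 174, 240 and 308 counts in P, Q and R, beside 1432 in A and 5470 in G. In RNA from whole cultures, fewer cells of a type and less RNA per cell cannot be told apart.

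In cultures P, Q and R, with the lowest sums of microglial marker RNA, Tlr4 was at 8.65, 8.32 and 7.44 CPM. Each of these was higher than in 8 of the other 9 cultures, and Nos2 was at 8.39 to 11.1 CPM. Astrocyte markers were also highest in P, Q, R and G, at 10360, 11950, 8425 and 8127 CPM against 2242 to 4857 CPM elsewhere, and their part in the levels of Tlr4 and Nos2 was not tested. Il1rn lay at 0.50 to 1.44 CPM in P-Q-R and at 1.15 to 11 CPM in the other cultures, while Il1b of high dose culture R, at 0.70 CPM, was above all 3 cultures of A-B-C. For every 10000 counts of microglial markers, there were 109.9 counts of Il1b in high dose culture R, 36.3 in O and 29.99 in I, against 3.29 in C, 0 to 21.8 in untreated and 2.58 to 10.1 in low dose cultures. The value of R rests on 17 counts of Il1b and 1547 of the markers. On this scale other genes were also high in P-Q-R, at every dose, where the marker counts were low. Tlr4 had 1164 to 1612 there against 31.4 to 95.4 elsewhere, and Il1rn 93.0 to 212 against 19.3 to 62.6.

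**Figure D4:**
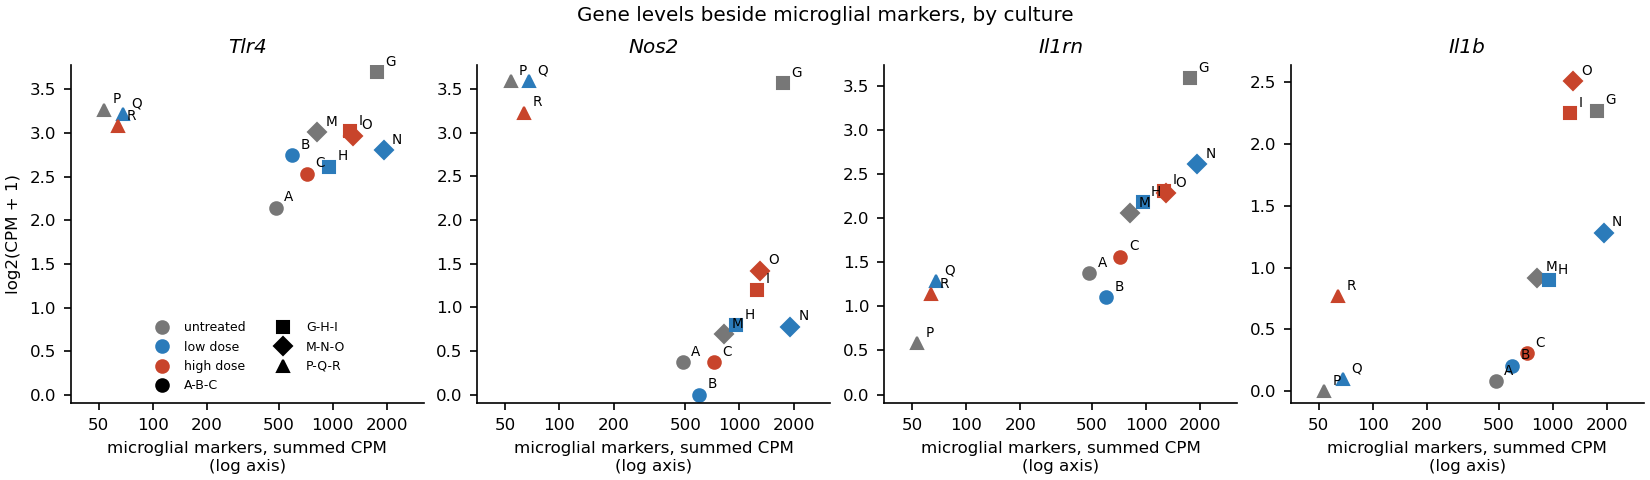
Levels of Tlr4, Nos2, Il1rn and Il1b as log2(CPM + 1) against the summed CPM of 15 microglial markers (log axis), with a letter for each culture, color for condition and shape for letter set. P, Q and R lie at the far left (53.6 to 68.0 CPM) but are high for Tlr4 and Nos2. For Il1b, the high dose cultures I and O lie above every low dose culture. High dose R lies above low dose Q, which has similar marker RNA, and above B, but below H and N. High dose C also lies above Q and B and below H and N.

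The wider pathway was described with lists of 129 other genes of receptor partners, adaptors, NF-κB, MAP kinases, inhibitors, other Toll-like receptors, cytokine systems and mediator synthesis, of which 103 were tested. None was a DEG. At an unadjusted p under 0.05, 2 were higher and 1 lower in low dose vs. untreated (0.546% and 0.196% of all genes), 5 and 1 in high dose vs. untreated (0.921% and 0.269%), and 4 and 0 between the doses (0.579% and 0.595%). The median log2 fold change of the 103 genes was 0.08, 0.12 and 0.06, beside 0.01, 0.00 and -0.01 over all genes. From low to high dose, 17 of the 103 were higher in every letter set and 4 lower, where 11.7% and 11.1% of all genes were.

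By list, the 11 genes of the IKK and NF-κB list included 4 that were higher at the high than at the low dose in every set and none that was lower. Of all genes, 11.7% were higher and 11.1% lower in every set. The 4 were Nfkbia, Nfkb2, Nfkbie and Ikbkg, the last 3 named after their values were seen. This list is shown as the one with the most such genes, and the other lists had 0 to 2. Nfkbia encodes IκBα, which holds NF-κB in the cytoplasm and is itself a target of NF-κB. Its levels were 31.8, 105, 26.4 and 23.1 CPM in untreated A, G, M and P, 33.0, 26.7, 39.1 and 26.5 CPM in low dose B, H, N and Q, and 46.1, 52.7, 59.8 and 41.1 CPM in high dose C, I, O and R. The high dose cultures all lay above the low dose cultures and above every untreated culture but G. The high and low dose cultures did not overlap, in either direction, in 1.19% of all genes. The log2 fold change was 0.67 (SE 0.14, unadjusted p = 0.000851) against untreated and 0.65 (SE 0.14, unadjusted p = 0.000818) against the low dose by edgeR, and the adjusted p was 0.9999 in each. Against untreated, the value was 0.86 without culture G (adjusted p of edgeR 0.755) and, with G kept, 0.098 without a factor and 0.29 with the letter sets as a block in place of it. Nfkbia was a DEG in this comparison with 4 factors (0.73, adjusted p of edgeR 0.0177, beside 0.318% of all genes) and with the block and no G (0.89, adjusted p of edgeR 0.0445, beside 0.122% of all genes). Between the doses it was a DEG with 4 factors (0.66, adjusted p of edgeR 0.0129), as were 0.921% of all genes.

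Among the other Toll-like receptors, Tlr2, the receptor for bacterial lipoproteins, had 2.01, 29.8, 2.95 and 1.08 CPM in untreated, 2.39, 2.41, 5.03 and 2 CPM in low dose and 4.74, 5.92, 7.16 and 2.65 CPM in high dose cultures. It was higher at the high than at the low dose within every letter set, as were 11.7% of all genes, and the doses overlapped. The log2 fold change was 0.78 (SE 0.22, unadjusted p = 0.00529, adjusted p 0.9999 by edgeR) in high dose vs. low dose and 0.997 (SE 0.23, unadjusted p = 0.00142, adjusted p 0.9999) in high dose vs. untreated. The latter varied with culture G and the factor, with 1.26 without G and 1.33 without G and with the letter sets as a block in place of the factor, against 0.07 with that block and G kept and -0.81 with G and neither block nor factor (adjusted p of edgeR 0.0756 or higher in each of these 4). With 4 factors Tlr2 was a DEG in high dose vs. low dose (0.76, adjusted p of edgeR 0.0349), as were 0.921% of all genes. For Tlr4 itself, the value of high dose vs. low dose was 0.04 (95% interval -0.61 to 0.70).

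Lbp and Map2k6 had the smallest p of the lists in low dose vs. untreated. Lbp, whose product carries lipopolysaccharide to CD14, gave a log2 fold change of 4.72 (SE 1.92, unadjusted p = 0.0334, adjusted p 1 by edgeR), which rested on culture N with 1711 counts. Culture G had 440 counts, and the other 10 cultures 3 to 57. Map2k6, a kinase that activates p38, gave 0.42 (SE 0.18, unadjusted p = 0.0405, adjusted p 1 by edgeR) and was higher in all sets, as were 4.06% of all genes. Its difference was 1.81 on the log2(CPM + 1) scale between H and G, which had 2.08 CPM, and 0.07 to 0.20 in the other sets, and without G the log2 fold change was 0.27 (unadjusted p = 0.16, adjusted p 0.994 by edgeR).

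In the interleukin-1 system, Il1a, singled out after its values were seen as the other agonist of the family, had 4, 88, 12 and 1 counts in untreated, 0, 21, 29 and 1 in low dose and 8, 56, 40 and 9 in high dose cultures. Like Il1b, it was higher at the high than at the low dose in every set, as were 11.7% of all genes. The differences were 0.56, 0.73, 0.31 and 0.36 on the log2(CPM + 1) scale (sets in alphabetical order). In the model Il1a gave 0.98 (SE 0.89, unadjusted p = 0.295 by edgeR). Further genes of the system, also outside the rule for named genes, were Casp1 and the receptor genes. Casp1, the protease that matures interleukin-1 beta, differed by 0.04 (SE 0.76) between high and low dose, and the receptor genes Il1r1 and Il1rap by -0.80 (SE 0.67) and 0.13 (SE 0.45).

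**Figure D5:**
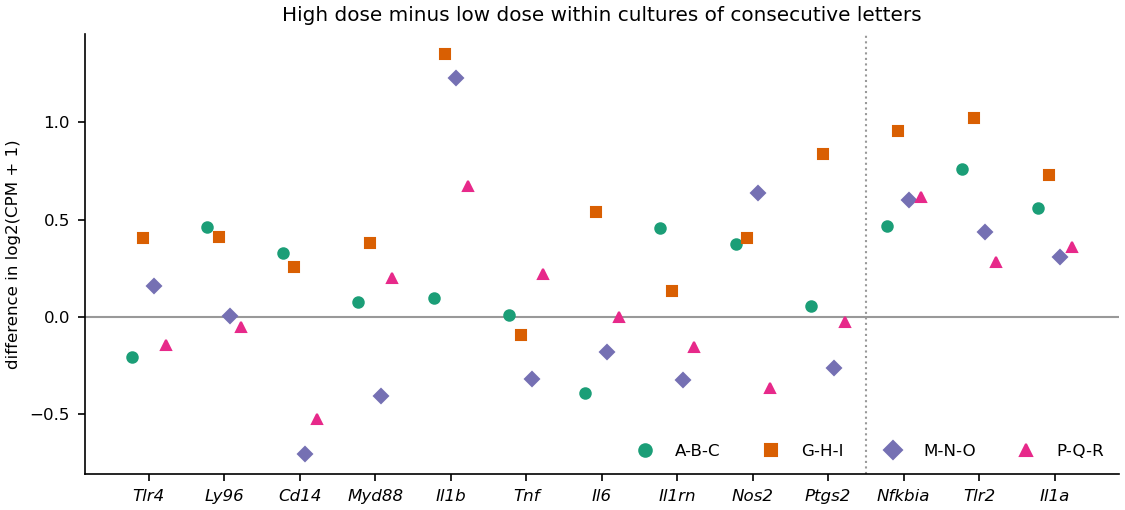
Difference in log2(CPM + 1) between the high dose and the low dose culture of each set of consecutive letters, for the 10 genes and, right of the dotted line, Nfkbia, Tlr2 and Il1a. All 4 points lie above 0 for Il1b (0.10, 1.35, 1.23 and 0.67), Nfkbia, Tlr2 and Il1a, and points lie on both sides of 0 for Tlr4, Ly96, Cd14, Myd88, Tnf, Il6, Il1rn, Nos2 and Ptgs2. Of all genes, 11.7% had all 4 differences above 0.

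Genes with the most similar pattern over the 12 cultures were ranked by Spearman's rho of log2(CPM + 1), as a description, since the cultures share letter sets and depth. For Tlr4 these were Dpp8, Reep3 and Ap5m1 (rho 0.979 to 0.986), and for Ly96 Ccdc69, Il1rl1 and Def6 (0.93 to 0.944). Cd14 was closest to Gatsl3, Mettl2b and Cd2ap (0.888 to 0.944) and Myd88 to Naaa, Adap2 and Nod2 (0.972 to 0.979). Il1b followed Hsp90b1, Stk3 and Rps27l (0.951 to 0.986), and Il1rn followed Cyp4b1, Ifitm1 and Runx3 (0.972 each). Nos2 was closest to Cables1, Ttc39a and Gja5 (0.965 to 0.972) and Ptgs2 to Slc9a9, Ccng1 and Ciita (0.909 to 0.965). No gene was named for more than 1 of the 8.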

How the data were processed

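RNA of 12 cultures was sequenced from poly(A)-enriched libraries (TruSeq, NextSeq 500). The authors aligned the reads to rat build rn6 with STAR and deposited featureCounts counts per gene symbol, as whole numbers without normalization. Annotation and strand setting are not given in the sources used here. Groups follow the treatment labels.

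Counts were analysed in R 4.3.3 with edgeR 4.0.16 and limma 3.58.1: TMM scaling, filterByExpr, 1 factor of unwanted variation by the RUVs formula written anew in R (the methods name RUVseq without procedure or number of factors), and the quasi-likelihood test over all 12 cultures with Benjamini-Hochberg adjustment over 12271 genes. Levels (log2(CPM + 1)) were compared by exact two-sided permutation tests. DESeq2 1.42.0, other scaling, filters, factors, offsets, a block by letter sets and left-out cultures were alternatives. The scripts were tested on simulated data. Named genes are the 10, the 2 pathway genes with the smallest p per comparison, and the 3 most similar genes by rho. Others are marked as outside this rule. The genes and lists were chosen with earlier results of these data known. No sequences or coordinates were used. The microglial list was used with 15 of its 16 markers, and the remaining marker is not reported here.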

Additional observations from a re-analysis of the deposited data

Results flagged for a closer look

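Of 30 groups of 4 cultures (10 genes in 3 conditions), 5 held a culture whose gap to its nearest neighbor exceeded the 95% critical share of the group's range by Dixon's criterion, which chance gives in about 1 of 20 groups. In untreated culture G, Ly96 was at 8.56 CPM, Cd14 at 29.1 CPM and Il6 at 1.23 CPM, each far above the other 3 untreated cultures. For Nos2, low dose culture Q with 11.1 CPM and high dose culture R with 8.39 CPM stood apart from the rest of their conditions. Untreated P of the same letter set was at 11.1 CPM as well and was not singled out, because G was high beside it.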

How the results depend on the processing

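Il1b stayed above 0 for the high dose against the low dose (1.42 to 2.28) and against untreated (0.96 to 5.29) under all 19 alternatives of the model, and passed the threshold in 1 of them. DEGs numbered 39 for the high dose against untreated and 113 against the low dose with 4 factors (1 of the 8 genes, Il1b, in the latter), 3 and 1 with the Wald test of DESeq2, and 15 and 14 with a replicate block by letter sets, no factor and no culture G. With the replicate block in place of the factor and all cultures kept there were none in any comparison, and without G but with the factor also none. Size factors of DESeq2 and no filter on low counts turned no direction.

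Log2 fold changes of the other members lay near 0 against their intervals, and several changed sign. Without a factor these were Cd14 -0.70, Myd88 -0.061, Il1b -0.91 and Il1rn -0.53 (low dose vs. untreated) and Ly96 -0.34, Cd14 -1.01, Myd88 -0.040, Il1rn -0.57 and Ptgs2 -0.047 in high dose vs. untreated. With the replicate block they were Cd14 -0.35, Myd88 -0.059, Il1b -0.51 and Il1rn -0.14 (low dose vs. untreated), Ly96 -0.22, Cd14 -0.65, Myd88 -0.017 and Il1rn -0.12 in high dose vs. untreated, and Il1rn 0.020 and Nos2 0.64 in high dose vs. low dose. With the block and no culture G they were Tlr4 0.050 and Ly96 0.0090 (low dose vs. untreated), Tlr4 0.11, Nos2 0.25 and Ptgs2 -0.16 in high dose vs. untreated, and Il1rn 0.017 and Nos2 0.42 in high dose vs. low dose. With 4 factors they were Tlr4 0.080, Nos2 0.58 and Ptgs2 -0.39 in high dose vs. untreated and Nos2 0.59 in high dose vs. low dose.

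On the log2(CPM + 0.1) scale, the plain differences that changed sign were Il1b 0.0091, Tnf 0.041, Il6 -0.14 and Ptgs2 0.046 (low dose vs. untreated), Tnf 0.21, Il6 -0.11 and Il1rn 0.059 in high dose vs. untreated, and Tnf 0.17 and Il6 0.034 in high dose vs. low dose. Without culture G the plain differences on the log2(CPM + 1) scale became Tlr4 0.038, Ly96 0.016, Cd14 0.39, Myd88 0.15, Il1b 0.29, Tnf 0.33 and Il1rn 0.46 in low dose vs. untreated and Tlr4 0.092, Ly96 0.22, Cd14 0.23, Tnf 0.28, Il1rn 0.49 and Nos2 0.0046 in high dose vs. untreated.

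Leaving out each culture in turn, fold changes that changed sign ranged over Tlr4 -0.49 to 0.21, Ly96 -0.23 to 0.044, Myd88 -0.080 to 0.24, Nos2 -3.20 to 2.36 and Ptgs2 -0.75 to 0.94 between low dose and untreated. For high dose and untreated the ranges were Tlr4 -0.44 to 0.26, Cd14 -0.23 to 0.27, Nos2 -2.12 to 2.33 and Ptgs2 -0.39 to 1.17. Between the doses they were Tlr4 -0.051 to 0.23, Cd14 -0.43 to 0.0037, Myd88 -0.087 to 0.22, Il1rn -0.25 to 0.22, Nos2 -1.64 to 2.64 and Ptgs2 -0.18 to 0.71. The causes were not tested. Counts of 0 to 34 for Tnf and Il6 limit what can be said of them at this depth.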
